A study of Mus musculus with 11 samples.

Results

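The ErbB receptors and their ligands were read in mammary tumours of PyMT and PyMT/SIRT6 mice from every array probe annotated to 10 genes, chosen by symbol. The receptors were Egfr, Erbb2, Erbb3 and Erbb4, and the ligands were Egf, Tgfa, Hbegf, Btc, Ereg and Nrg1. They had 21 probes of 45281 on the array, and were 10 of 19057 genes with a probe. Each of the 11 tumours was taken from a female mouse 12 weeks old and gave 1 array, with 6 PyMT tumours and 5 PyMT/SIRT6 tumours. Both groups carry the PyMT transgene, which encodes the polyoma virus middle T antigen and makes mammary tumours form spontaneously. The PyMT/SIRT6 mice carry in addition the Sirt6BAC allele, which overexpresses functional SIRT6, a nuclear NAD-dependent deacylase of chromatin. Which promoter drives the PyMT transgene is not stated in the labels. They also leave open how many mice the tumours came from, so the p-values describe the spread between these 11 samples, whose number limits the precision.

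ErbB proteins are receptor tyrosine kinases of the cell surface. A ligand brings receptors together in pairs, the kinases phosphorylate the receptor tails, and adaptor proteins then switch on the RAS-ERK and PI3K-AKT cascades. In the mammary gland EGFR signalling is known for duct growth, ErbB4 for milk secretion, and ErbB2 as an oncogene. Middle T antigen itself recruits SRC family kinases, SHC1 and PI3K, and so feeds the same cascades from inside the cell.

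Values are given on the log2 scale of the deposited probe intensity. Different probes bind with different strength, so no level of a probe is set against that of another probe. The level that an unexpressed gene reads was taken from 1287 probes of olfactory receptor genes. Their means over the 11 arrays had a median of 7.22, and 95% of them lay below 7.33, an intensity of 160.5. The 8 probes of Y-linked genes, which female mice lack, had means from 7.15 to 7.32. A probe with a mean above 7.33 is called above the dim level here, and 43% of all probes were.

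Of the 10 genes, 6 had a probe above the dim level: Egfr, Erbb2, Egf, Hbegf, Btc and Nrg1. In all, 11 of the 21 probes lay above it. Erbb3, Erbb4, Tgfa and Ereg had no such probe. A dim probe does not show that a gene is silent. The single Epcam probe, for an adhesion molecule of epithelial cells, also read at the dim level (7.27 in PyMT and 7.25 in PyMT/SIRT6 tumours), while Krt8, a keratin of luminal cells, read 12.78 and 12.58. Of 11 luminal epithelium markers with a probe 9 were above the dim level, and Epcam and the oestrogen receptor gene Esr1 were not.

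Sirt6 checked the genotype labels. Its brightest probe had a mean of 7.76 ± 0.09 in the 6 PyMT tumours (SD) and 8.37 ± 0.19 (SD, n = 5) with the added allele, and every PyMT/SIRT6 tumour lay above every PyMT tumour (exact two-sided permutation p = 0.002165, the smallest these 462 splits can give).

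None of the tested ErbB genes differed between the genotypes beyond the spread among tumours. In limma 0 of the 6 tested genes passed an adjusted p of 0.05 over all 14726 tested features. Of those features 0.0136% passed, all of them higher. Sirt6, with a difference of 0.61 ± 0.09 (SE), also missed that threshold in this fit (limma adjusted p = 0.0574). At an unadjusted p under 0.05 there were also 0 of 6, against 4.43% of all tested features. Fitting every probe without a filter, 0 of 21 member probes passed after adjustment, against 0.00663% of all probes, and 0 had an unadjusted p under 0.05, against 4.91%. The genotypes overlapped on every member probe, while over the tested features 0.292% did not overlap with PyMT/SIRT6 higher and 0.197% with PyMT/SIRT6 lower. Of the 6 tested genes 3 had a positive and 3 a negative difference, and 46.9% of all tested features had a positive one.

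Egfr is the receptor for EGF, TGF-alpha, amphiregulin and other ligands. Its brightest probe (ILMN_2693922) ran from 8.80 through a median of 9.05 to 9.39 in the 6 PyMT tumours. The PyMT/SIRT6 tumours read 9.39, 9.74, 8.80, 9.22 and 8.97 in replicates 1 to 5. Replicate 2 of PyMT/SIRT6 was the highest of all 11 tumours, and the rest lay within the PyMT range. The difference was 0.15 ± 0.18 (SE; 95% interval −0.24 to 0.53; limma adjusted p = 0.983), a 1.11-fold ratio. The Egfr probe varied more than most: only 10% of tested features had a larger SD within genotype than its 0.33, where the median feature had 0.13.

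Erbb2 encodes a receptor with no known ligand of its own, the preferred partner of the other receptors. Its probe (ILMN_2739424) ran from 8.31 through a median of 8.47 to 8.86 in PyMT tumours. The PyMT/SIRT6 tumours read 8.68, 8.75, 8.41, 8.33 and 8.34 in replicates 1 to 5. Both groups thus held tumours near 8.3 to 8.4 and tumours near 8.7, and the highest was PyMT replicate 5. The difference was −0.04 ± 0.12 (SE; 95% interval −0.30 to 0.22; limma adjusted p = 0.985). It changed sign, to 0.098, without the 4 tumours high in skeletal muscle markers (PyMT replicate 5 and PyMT/SIRT6 replicates 1, 4 and 5), to 0.023 without PyMT replicate 5, and to 0.0023 without PyMT/SIRT6 replicate 4. Without those 4 tumours only replicates 2 and 3 of PyMT/SIRT6 remained, and the SE was 0.16.

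**Figure D1:**
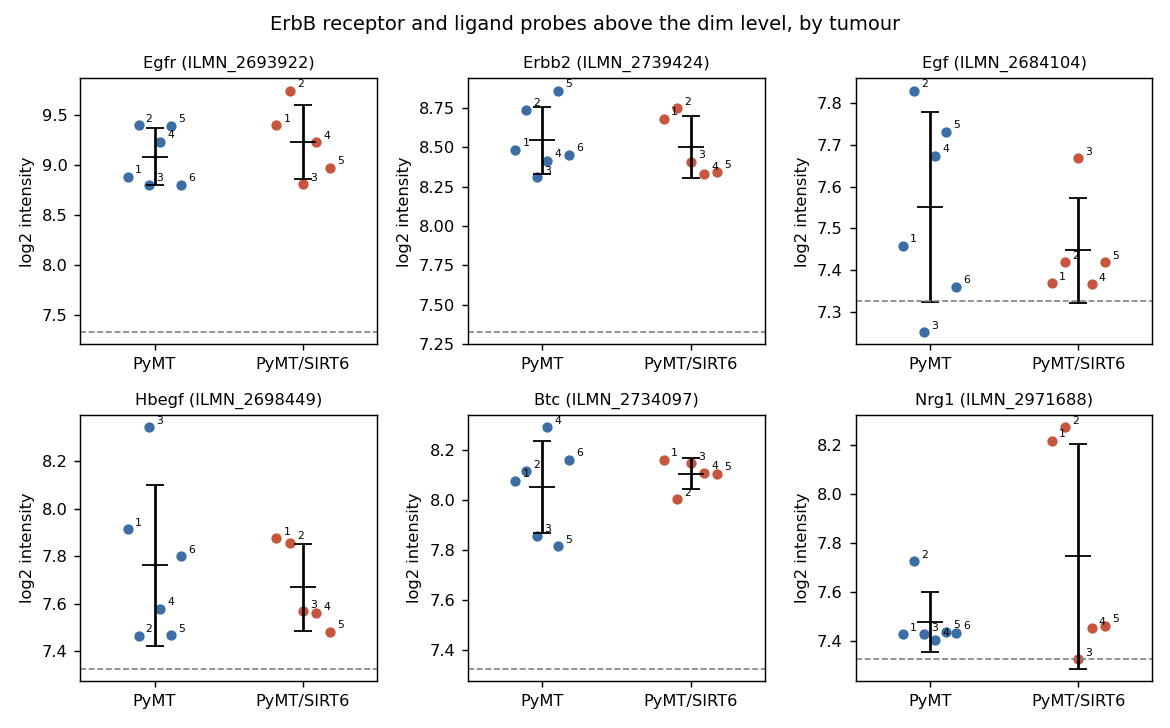
Each panel plots the log2 intensity of the brightest probe of a gene in 6 PyMT and 5 PyMT/SIRT6 tumours; numbered points are tumours, bars are the mean ± SD, and the dashed line is the dim level of 7.33. The genotypes overlap in every panel, and in the Nrg1 panel PyMT/SIRT6 replicates 1 and 2 (8.22 and 8.27) stand above all other tumours.

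Erbb3, which binds neuregulins and has a weak kinase, and Erbb4, a neuregulin receptor with an active kinase, could not be followed with these probes. The single Erbb3 probe ran from 7.16 to 7.37 in PyMT tumours and read 7.27, 7.26, 7.36, 7.33 and 7.22 in PyMT/SIRT6 replicates 1 to 5, a difference of 0.0041. The 2 Erbb4 probes had means of 7.20 and 7.07 and were above the dim level on 0 of 11 arrays. All 3 probes had means below the dim level in both genotypes, and the Erbb3 probe was above it on 3 of 11 arrays.

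Nrg1 encodes neuregulin 1, the ligand of ErbB3 and ErbB4. Its brightest probe (ILMN_2971688) lay between 7.40 and 7.73 in PyMT tumours, with a median of 7.43. The PyMT/SIRT6 tumours read 8.22, 8.27, 7.33, 7.45 and 7.46 in replicates 1 to 5. Replicates 1 and 2 thus stood apart from the other 9 tumours, while replicate 3 was the lowest of all. The difference between genotypes was 0.27 ± 0.16 (SE; 95% interval −0.08 to 0.62; limma adjusted p = 0.983), and without replicates 1 and 2 of PyMT/SIRT6 it was −0.063 (limma adjusted p = 0.787). Leaving out 1 tumour at a time moved it between 0.14, without PyMT/SIRT6 replicate 2, and 0.37, without PyMT/SIRT6 replicate 3. The other 2 Nrg1 probes, annotated to the same transcript, were dim, with means of 7.27 and 7.16. These probes read 7.23 and 7.20 in PyMT/SIRT6 replicate 1, and 7.33 and 7.22 in replicate 2. Replicate 2 was the highest tumour on both, though on the first only at 7.3294 against 7.3288 in PyMT/SIRT6 replicate 4. Replicate 1 was next highest on the second probe and below the mean on the first. Being dim, these probes cannot decide whether Nrg1 was high in PyMT/SIRT6 replicates 1 and 2. Nerve and Schwann cell markers, from cells that use neuregulin 1, averaged 8.36 and 8.57 in those tumours, within the 8.28 to 8.60 of the other 9. Over the 11 tumours Nrg1 and this list gave r = 0.47 (permutation p = 0.127, adjusted 0.459 over 54 relations) and rho = 0.61 (permutation p = 0.0532, adjusted 0.319). Without PyMT/SIRT6 replicates 1 and 2, the farthest in Nrg1, r was 0.81. Without PyMT replicate 2 and PyMT/SIRT6 replicate 2, the farthest in the list, r was −0.04. The part of such cells in the genotype difference was not tested.

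Egf encodes the founding ligand of EGFR. Its brightest probe (ILMN_2684104) ran from 7.25 through a median of 7.57 to 7.83 in PyMT tumours. The PyMT/SIRT6 tumours read 7.37, 7.42, 7.67, 7.37 and 7.42 in replicates 1 to 5. PyMT replicate 2 was the highest and PyMT replicate 3, at the dim level, the lowest, so the PyMT tumours enclosed the others. The difference was −0.10 ± 0.10 (SE; 95% interval −0.31 to 0.11; limma adjusted p = 0.983), and it was 0.028 without the 4 tumours high in skeletal muscle markers. The second Egf probe sat just above the dim level at 7.35 and varied little, with an SD of 0.05 within genotype.

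Hbegf encodes heparin-binding EGF-like growth factor, a ligand of EGFR and ErbB4. Its brightest probe (ILMN_2698449) ran from 7.47 through a median of 7.69 to 8.34 in PyMT tumours, and read 7.87, 7.86, 7.57, 7.56 and 7.48 in PyMT/SIRT6 replicates 1 to 5. PyMT replicate 3 was the highest tumour. The difference was −0.09 ± 0.14 (SE; 95% interval −0.41 to 0.22; limma adjusted p = 0.983), and it turned to 0.023 without PyMT replicate 3. The second Hbegf probe read at the dim level, with a mean of 7.32.

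Btc encodes betacellulin, a ligand of EGFR and ErbB4, and had the smallest SD within genotype, 0.14, among the brightest probes of the 4 tested ligands. Its single probe (ILMN_2734097) ran from 7.81 through a median of 8.10 to 8.29 in PyMT tumours. The PyMT/SIRT6 tumours read 8.16, 8.00, 8.15, 8.11 and 8.10 in replicates 1 to 5. The difference was 0.05 ± 0.09 (SE; 95% interval −0.14 to 0.25; limma adjusted p = 0.983), turning to −0.025 without the 4 tumours high in skeletal muscle markers and to −0.0084 with array weights. The SD was 0.18 in PyMT and 0.06 in PyMT/SIRT6 tumours, a difference in spread that was not tested.

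Tgfa, for transforming growth factor alpha, a ligand of EGFR, and Ereg, for epiregulin, a ligand of EGFR and ErbB4, read at the dim level. The Tgfa probe ran from 7.21 to 7.33 in PyMT tumours and read 7.23, 7.37, 7.25, 7.24 and 7.17 in PyMT/SIRT6 replicates 1 to 5. The 2 Ereg probes had means of 7.27 and 7.23 and were above the dim level on 0 of 11 arrays. Over the 10 dim probes of the family the widest difference was −0.05, of Ereg. The widest differences among the probes above the dim level belonged to Nrg1 and Egfr, at 0.27 ± 0.16 and 0.15 ± 0.18 (SE).

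**Figure D2:**
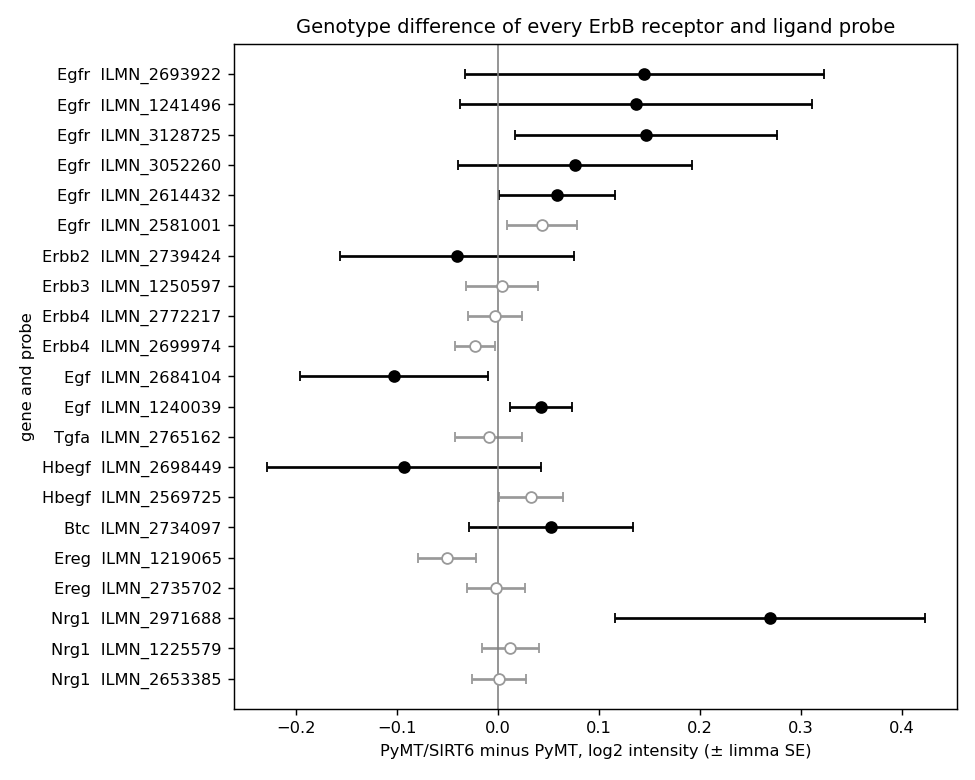
For each of the 21 probes the point is the difference PyMT/SIRT6 minus PyMT in log2 intensity and the bar is ± 1 limma standard error from the fit of every probe; filled black points are probes above the dim level and open grey points are dim. The grey points lie close to 0, the farthest at −0.05 (Ereg), and the Nrg1 probe ILMN_2971688 has the widest bar-to-zero distance at 0.27.

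The 6 Egfr probes did not all follow the same pattern. The platform annotation assigns ILMN_2693922 to transcript NM_207655 and gives no transcript for ILMN_1241496, while ILMN_3128725 and ILMN_3052260 are assigned to transcript NM_007912. In PyMT replicate 5 the probes read 9.39, 9.13, 8.22 and 8.01 in that order, and in PyMT replicate 4 they read 9.22, 8.77, 7.92 and 7.84. PyMT replicate 4 was thus above the probe mean on the first pair and the lowest tumour of all on the second pair. In PyMT/SIRT6 replicate 2 the readings were 9.74, 9.01, 8.83 and 8.59, high on all 4 probes. ILMN_2614432, also assigned to NM_207655, lay closer to the dim level, with a mean of 7.46. It was lowest in PyMT/SIRT6 replicate 4, at 7.31, where the first pair read 9.22 and 8.91, above their means. The last probe, ILMN_2581001, was dim, with a mean of 7.30. Relations of ILMN_2614432 and ILMN_2581001 with the other probes were not computed.

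Within each pair the probes rose and fell together across the 11 tumours. For ILMN_3128725 and ILMN_3052260 Pearson r was 0.98 (permutation p = 1e-05, the smallest 100000 resamples can give, adjusted 6e-05 over 6 probe pairs) and Spearman rho 0.96 (permutation p = 5.0e-05, adjusted 3.0e-04). Without the 2 farthest tumours r was 0.88. For ILMN_2693922 and ILMN_1241496 r was 0.89 (permutation p = 5.8e-04, adjusted 0.00174) and rho 0.83 (permutation p = 0.00259, adjusted 0.00777), and r was 0.90 without the 2 farthest tumours. Between the pairs, ILMN_2693922 and ILMN_3128725 gave r = 0.64 (permutation p = 0.027, adjusted 0.054) and rho = 0.42 (permutation p = 0.203, adjusted 0.407), and r fell to 0.20 without PyMT replicate 3 and PyMT/SIRT6 replicate 2. That relation rests on those tumours. All 4 probes had a positive genotype difference, from 0.08 to 0.15, with standard errors from 0.12 to 0.18.

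**Figure D3:**
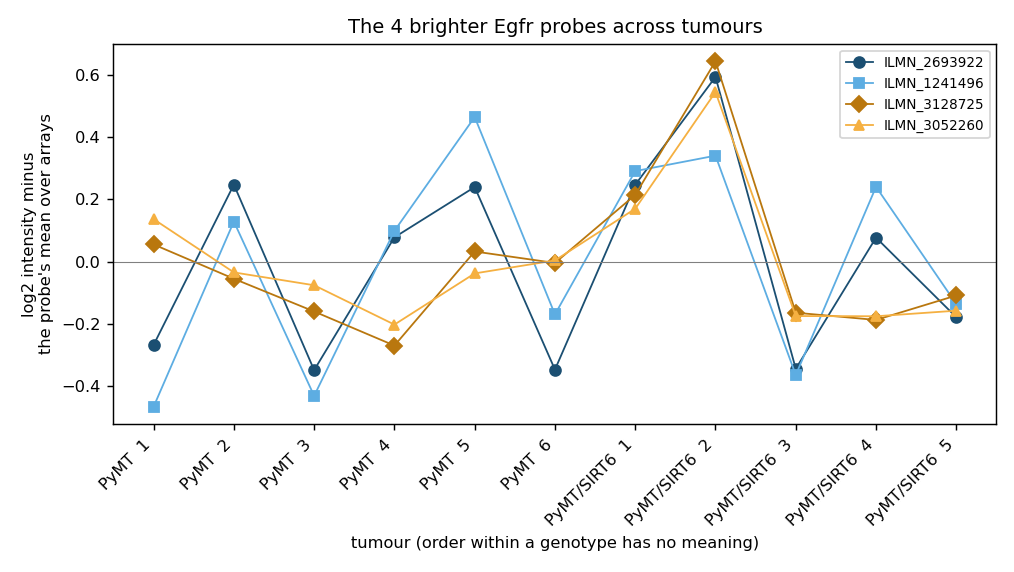
The y axis shows the log2 intensity of each of the 4 brighter Egfr probes minus the mean of that probe over the 11 tumours on the x axis; each line is a probe and the order of tumours within a genotype has no meaning. The blue lines (ILMN_2693922 and ILMN_1241496) and the orange lines (ILMN_3128725 and ILMN_3052260) move within their pair, part at PyMT replicates 4 and 5, and meet at PyMT/SIRT6 replicate 2.

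Across tumours the Egfr and Erbb2 probes tended to be high in the same samples, namely PyMT replicates 2 and 5 and PyMT/SIRT6 replicates 1 and 2. Pearson r was 0.75 (permutation p = 0.0104, adjusted 0.0615 over 15 pairs of genes) and Spearman rho 0.72 (permutation p = 0.0155, adjusted 0.116), so the relation did not pass after adjustment. Without the 2 tumours farthest in Egfr r was 0.66, and it was 0.80 with values centred within genotype. Such relations were not rare on these arrays: 4.22% of all tested features had an r of at least 0.75 with Egfr and 5.94% with Erbb2. Egf and Hbegf were high in different tumours (r = −0.70, permutation p = 0.0123, adjusted 0.0615; rho = −0.64, permutation p = 0.0403, adjusted 0.201), and r was −0.61 without the 2 tumours farthest in Egf. Of the 15 pairs only Egfr and Nrg1 passed after adjustment, and only for Pearson r (0.75, permutation p = 0.00113, adjusted 0.0169; rho = 0.74, permutation p = 0.0127, adjusted 0.116). The Nrg1 values fall into 2 high tumours and 9 others, and over those 9 r was 0.57, so that the pooled value rests in part on PyMT/SIRT6 replicates 1 and 2. It was 0.58 without PyMT replicate 3 and PyMT/SIRT6 replicate 2, the farthest in Egfr.

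As Egfr and Erbb2 were the receptors that could be followed and were high in the same tumours, their promoter sequence is shown, as the 250 bases before the gene start in RefSeq (build GRCm38.p6, plus strand for both), 5′ to 3′. Egfr lies at chr11:16751953-16752202 and Erbb2 at chr11:98412234-98412483 in these windows. Capitals mark the GC box letters GGGCGG on either strand, a binding sequence of SP1-type factors.
Egfr: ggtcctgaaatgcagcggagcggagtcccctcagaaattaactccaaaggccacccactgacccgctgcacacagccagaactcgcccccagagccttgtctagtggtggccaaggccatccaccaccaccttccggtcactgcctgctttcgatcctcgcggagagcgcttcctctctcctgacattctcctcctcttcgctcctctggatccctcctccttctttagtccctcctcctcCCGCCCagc
Erbb2: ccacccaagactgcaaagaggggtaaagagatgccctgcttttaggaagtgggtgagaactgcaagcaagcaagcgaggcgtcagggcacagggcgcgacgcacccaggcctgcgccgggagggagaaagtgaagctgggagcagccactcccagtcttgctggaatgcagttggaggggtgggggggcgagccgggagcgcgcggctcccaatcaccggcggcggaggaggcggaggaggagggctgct
Egfr had 1 match, close to the gene start, and Erbb2 had 0, while 32.7% of 32851 such windows held at least 1. The letters TATAAA, searched on both strands, were in neither, and 12.4% of windows held them. Both windows were rich in CG dinucleotides, with 11 in Egfr and 16 in Erbb2 against a median of 6. The table held windows for 6 of the 10 genes.

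The genes most alike in pattern were found among 11367 tested genes by Pearson r over the 11 tumours, as a description. For Egfr they were Zc3h4 (r = 0.95, rho = 0.95), Proser1 (r = 0.94, rho = 0.91) and Nisch (r = 0.94, rho = 0.85). Without the 2 tumours farthest in Egfr their r was 0.91, 0.96 and 0.93. For Erbb2 they were Cnot3, a subunit of a deadenylase complex (r = 0.97, rho = 0.98), Anks1 (r = 0.95, rho = 0.87) and the zinc finger factor gene Klf13 (r = 0.95, rho = 0.91), with r of 0.94, 0.93 and 0.91 without the 2 farthest tumours. For Egf they were Aldh3b2 (r = 0.96, rho = 0.84), the immunoglobulin transport receptor gene Pigr (r = 0.96, rho = 0.85) and Myorg (r = 0.95, rho = 0.92), with r of 0.94 each without the 2 farthest. For Hbegf they were the actin bundling gene Espn (r = 0.97, rho = 0.84), Trp53i11 (r = 0.96, rho = 0.83) and the transporter gene Slc6a15 (r = 0.95, rho = 0.85). Without the 2 tumours farthest in Hbegf, PyMT replicates 1 and 3, these were 0.94, 0.91 and 0.87. Btc had no close match: Cd226 (r = 0.79, rho = 0.66), Ltk (r = 0.79, rho = 0.71) and 9130008F23Rik (r = 0.78, rho = 0.69), which were 0.45, 0.25 and 0.76 without the 2 farthest. For Nrg1 the leading gene Them5 (r = 0.95, rho = 0.88) dropped to 0.27 without PyMT/SIRT6 replicates 1 and 2, Rhoj (r = 0.95, rho = 0.94) to 0.63 and Farp2 (r = 0.95, rho = 0.71) to 0.78. The Nrg1 matches thus rest largely on those 2 tumours.

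Egf followed the luminal epithelium markers. Its brightest probe rose with the mean of 11 luminal epithelium markers over the tumours (r = 0.86, permutation p = 3.0e-04, adjusted 0.0162 over 54 relations; rho = 0.90, permutation p = 4.5e-04, adjusted 0.0243). It was 0.78 without PyMT replicates 2 and 5, the farthest in Egf, and 0.86 within genotype. The luminal mean was highest in PyMT replicate 2, at 10.13, and lowest in PyMT replicate 3, at 9.44, the same tumours that were highest and lowest for Egf. In such bulk samples fewer cells of a type and less RNA per cell cannot be told apart. Egfr gave r = 0.81 with the nerve and Schwann cell list (permutation p = 0.00146, adjusted 0.0394) but rho = 0.80 with an adjusted p of 0.136 (permutation p = 0.00504), and r was 0.67 without the 2 farthest. That list holds Sox10, which read 11.56 to 12.84 here and is also known in mammary epithelium. Of its 10 entries 7 had a probe and 6 were above the dim level. The skeletal muscle list was not among the 54 relations. The other 52 relations had adjusted p from 0.126 upwards for Pearson r, among them those of Hbegf with fibroblast markers (r = −0.74, permutation p = 0.00837, adjusted 0.126; rho = −0.66, permutation p = 0.0315, adjusted 0.258). Hbegf also gave a negative r with T and NK cell (−0.74), adipocyte (−0.71), luminal epithelium (−0.68) and macrophage markers (−0.61). The trend was thus not particular to fibroblast markers, and with endothelial markers r was 0.22.

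**Figure D4:**
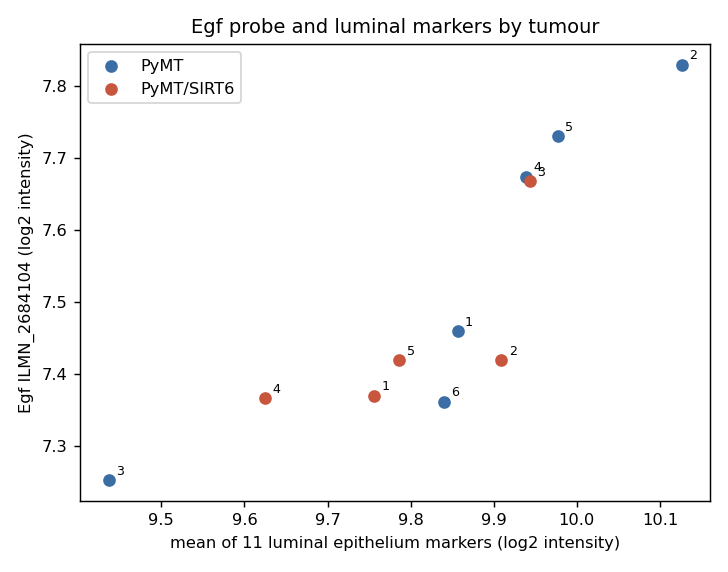
Each point is a tumour, numbered by replicate, with the mean log2 intensity of 11 luminal epithelium markers on the x axis and the log2 intensity of Egf probe ILMN_2684104 on the y axis; blue is PyMT and red is PyMT/SIRT6. The points climb from PyMT replicate 3 (9.44 and 7.25) to PyMT replicate 2 (10.13 and 7.83), with both genotypes along the same course.

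Skeletal muscle markers split the tumours, with list means of 10.22 to 11.97 in PyMT replicate 5 and PyMT/SIRT6 replicates 1, 4 and 5 and of 7.27 to 8.50 in the other 7. In limma 0 members of any marker list passed after adjustment. The 9 tested basal and myoepithelial markers all had a negative difference, 3 of them at an unadjusted p under 0.05, where 2.39% of all tested features were lower with such a p. Other lists had the opposite sign throughout: all 9 tested fibroblast, 8 macrophage and 6 T and NK cell markers had a positive difference, and 3 of the T and NK cell markers had an unadjusted p under 0.05, where 2.04% of all tested features were higher with such a p. Over all tested features 46.9% had a positive difference, and members of a list need not vary independently. The median difference of the basal list was −0.36, against −0.0053 over all tested features. Egfr is a gene that basal and stromal cells express too. Across tumours its brightest probe gave r = −0.09 with the basal list (rho = −0.20) and r = −0.08 with the fibroblast list (rho = −0.08). Both had an adjusted permutation p of 0.968 for Pearson r. What these cells add to the Egfr values was not tested.

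Other ErbB ligands and the proteases that release ligands gave no adjusted call either. Epgn, for epigen, a ligand of EGFR, ran from 7.47 to 8.65 in PyMT tumours, highest in PyMT replicate 3, and had a difference of −0.11 ± 0.18 (SE). Nrg4, a neuregulin that binds ErbB4, had a difference of −0.09 ± 0.06 (SE) and Nrg3 read at the dim level. Of the 5 other ligand genes listed 3 had a probe in the annotation used, and the amphiregulin gene Areg and Nrg2 were not analysed here. Of 7 tested genes for ligand release 2 had an unadjusted p under 0.05 and both were lower, where 2.39% of tested features were lower with such a p. These were Rhbdf2, an inactive rhomboid that carries the protease ADAM17 to the surface (−0.10 ± 0.04, unadjusted p = 0.0173, limma adjusted p = 0.983), and Pcsk6, a proprotein convertase (−0.40 ± 0.18, unadjusted p = 0.0419, limma adjusted p = 0.983). Rhbdf2 was close to the dim level, at 7.46 in PyMT and 7.37 in PyMT/SIRT6 tumours. Pcsk6 was highest in PyMT replicates 1 and 3, at 9.47 and 9.34, and the other tumours lay between 8.35 and 8.82. Adam17 itself, the main sheddase of EGFR ligands, had a difference of −0.09 ± 0.08 (SE).

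Downstream of the receptors the tested genes differed little by genotype. Among 19 adaptors and phosphatases 6 were higher and 13 lower, with a median difference of −0.04, and 0 had an unadjusted p under 0.05. Leading them by p were Shc1, the adaptor that binds both ErbB receptors and middle T antigen (−0.28 ± 0.14), and Ptprk, a receptor phosphatase (−0.25 ± 0.16). Among 18 inhibitors and turnover genes 8 were higher and 10 lower, with a median of −0.01, and the members of smallest p were Lrig3, of a family that restrains receptors (−0.20 ± 0.12), and Spry4, an ERK feedback inhibitor (0.10 ± 0.08). The feedback inhibitor of EGFR Errfi1 had −0.20 ± 0.17. Among 13 ERK response genes 5 were higher and 8 lower, with a median of −0.06, and Myc (−0.09 ± 0.06) and the ERK phosphatase Dusp6 (−0.19 ± 0.16) had the smallest p. Among 10 tested genes of the PI3K and ERK cascades 2 were higher and 8 lower, with a median of −0.12, led by Nras (−0.14 ± 0.10) and Pik3r2 (−0.15 ± 0.12). Over all tested features 6910 were higher and 7816 lower. In each of these 4 lists 0 members passed in limma, adjusted over all tested features.

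Genes that lie beside Erbb2 on its chromosome, which are co-amplified with it in some human breast cancers, had a median difference of 0.0083 over 8 tested genes. The lipid transfer gene Stard3 differed by 0.0042 ± 0.13, the adaptor gene Grb7 by 0.02 ± 0.20 and Mien1 by 0.14 ± 0.09. Tcap, a muscle gene in that stretch, differed by 0.98 ± 0.94 and ran from 7.28 to 12.01 in PyMT tumours. In limma 0 of the 8 had an unadjusted p under 0.05 and 0 passed after adjustment.

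**Figure D5:**
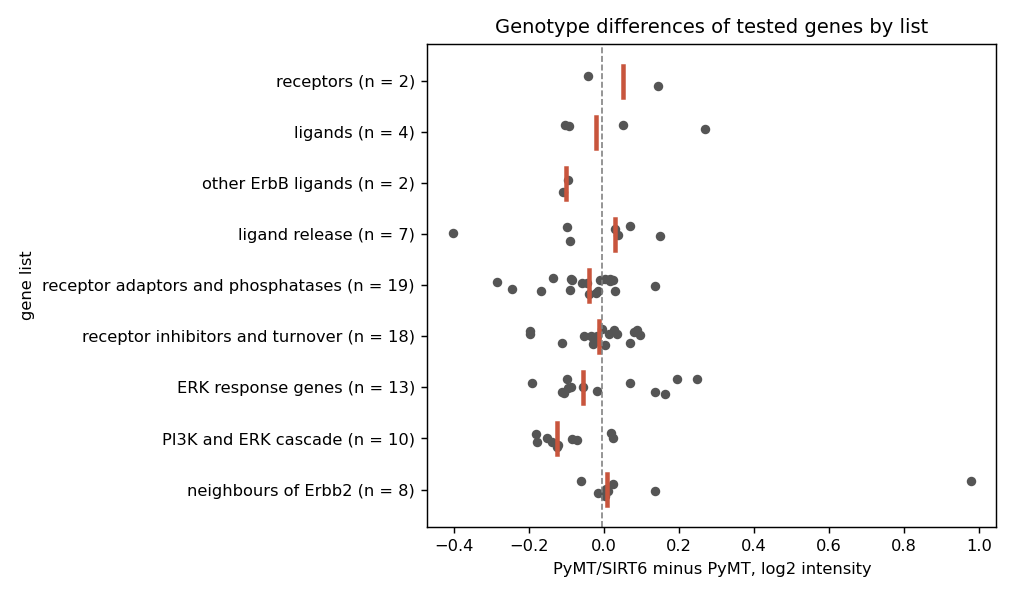
Each grey point is a tested gene, placed by its log2 difference PyMT/SIRT6 minus PyMT on the x axis and by its list on the y axis; red bars are list medians and the dashed line is the median of all 14726 tested features. The list medians lie between −0.12 (PI3K and ERK cascade) and 0.05 (receptors), and the muscle gene Tcap is the point at 0.98.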

How the data were processed

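RNA of 11 mammary tumours was read on Illumina Mouse WG-6 v2.0 arrays, per the labels' protocols. The authors deposited 1 linear intensity per probe and array, and how they treated background and normalized is not stated in the labels. After sorting, the 11 arrays differed by at most 1.08%, so the values already share their quantiles and were not scaled again. As background was not visibly subtracted, folds of dim probes are too small. Detection p-values were not used.

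Groups follow the genotype label, and replicate numbers follow deposit order and pair no samples. Probe genes came from the platform annotation of 34885 probes with a single symbol, 18 with several and 10378 with none; 34807 matched RefSeq GRCm38.p6, which changed 0 symbols. Log2 intensities of the brightest probe of each gene by mean, without the lower 50% of 29453 features, entered lmFit and eBayes with trend (limma 3.58.1, R 4.3.3), and p-values were adjusted by Benjamini-Hochberg over 14726 features. Probes other than the brightest come from a fit of every probe. The fit was tested on simulated data. Correlations used 100000 permutations, adjusted within each family. From each pathway list the members with an unadjusted p under 0.05, otherwise the 2 of smallest p, are named, along with all 10 member genes, Sirt6 and the 3 most alike genes; Errfi1, Adam17, Epgn and the neighbours of Erbb2 with values were chosen after their values were seen. The members and lists were chosen with earlier results of these data known. Alternatives, run one at a time, were 25 settings, of which leaving out PyMT/SIRT6 replicates 1 and 2 together was chosen after seeing the data.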

Additional observations from a re-analysis of the deposited data

Results flagged for a closer look

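A sample far from the others of its group, by its gap to the nearest tumour over the range of the group, was found in 7 of 56 groups checked. For independent, normally spread values chance gives about 1 in 20. These groups are not independent, as they include several probes of a gene and list means of the same tumours. The count therefore does not show more such samples than chance. Nrg1 probe ILMN_2971688 was at 7.73 in PyMT replicate 2, with the next PyMT tumour at 7.44. Egf probe ILMN_2684104 was at 7.67 in PyMT/SIRT6 replicate 3, with the next at 7.42. Ereg probe ILMN_1219065 was at 7.19 in PyMT replicate 6, with the next at 7.28, all dim readings. PyMT/SIRT6 replicate 2 stood apart in its group for the means of 3 lists: 10.05 against 9.45 in the next tumour for ERK response genes, 8.44 against 8.30 for receptor inhibitors and turnover, and 8.98 against 8.80 for the PI3K and ERK cascade. The mean of the neighbours of Erbb2 was 9.12 in PyMT replicate 5, with the next at 8.69; that list holds the muscle gene Tcap, and this tumour also had the highest skeletal muscle mean, 11.97.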

How the results depend on the processing

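None of the 6 ErbB genes passed the threshold in limma in any of the 25 alternatives that tested it, where the count was 0 each time. With the lower 75% left out, Egf, Hbegf and Nrg1 fell under the filter, so that setting tested only Egfr, Erbb2 and Btc. Unadjusted limma p-values of the 6 genes went as low as 0.0361 (Nrg1, without PyMT/SIRT6 replicate 3). That of the dim gene Ereg went as low as 0.0140 (without PyMT replicate 6). Besides the sign changes given above for single tumours, PyMT/SIRT6 replicates 1 and 2 left out together turned Egfr to −0.082 and Nrg1 to −0.063. Leaving out 1 tumour at a time, the differences ran from 0.02 to 0.25 for Egfr, −0.10 to 0.023 for Erbb2, −0.16 to −0.05 for Egf, −0.15 to 0.023 for Hbegf, 0.0050 to 0.10 for Btc and 0.14 to 0.37 for Nrg1. Without the 4 tumours high in skeletal muscle markers Erbb2 was 0.098, Egf 0.028 and Btc −0.025. That setting left only replicates 2 and 3 of PyMT/SIRT6. Btc was −0.0084 with array weights. The count of called features over the whole array, 2 as reported, was 4 with the mean of the probes of a gene, with normexp background subtraction and with array weights, 6 with every probe tested, 1 with deposit order as a block, 1 without PyMT/SIRT6 replicates 1 and 2, 0 without the tumours high in muscle markers, and 1 to 3 with single tumours left out. The Sirt6 difference of 0.61 (limma adjusted p = 0.0574) passed with no filter (0.61), with the lower 75% left out (0.61), with every probe tested (0.61), with robust eBayes (0.61), with the mean of its probes (0.46), with normexp (1.04) and with array weights (0.55), and ran from 0.54 to 0.65 with single tumours left out. No paired analysis was made, as the labels do not pair samples between the genotypes. Signal over background limits the 4 dim genes, whose differences cannot be read at this level.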

Other observations

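PyMT/SIRT6 replicate 2, the tumour highest for Egfr and Nrg1, was also the highest of the 11 for 6 of 13 tested ERK response genes, where it was highest for 12.5% of all tested features. In it Ccnd1, the cyclin that starts the cell cycle, read 13.46 against 11.27 to 12.58 in the others, the transcription factor gene Etv5 10.33 against 8.65 to 9.72, the receptor tyrosine kinase gene Epha2 8.95 against 7.64 to 8.30, Ier3 13.08 against 11.38 to 12.13 and Egr1 11.45 against 9.95 to 10.96. Dusp6 read 11.74 there and 11.72 in PyMT replicate 3, so that reading was not its alone. This tumour was singled out after its values were seen, and no test was made.

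PyMT replicate 3, lowest for Egf and for the luminal list, was the highest of the 11 for Hbegf (8.34) and Epgn (8.65), both ligands of EGFR. It was the highest for 16.4% of all tested features, the largest share of any of the 11 tumours. These are values of single tumours with no replicate of their own.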
